A study of Mus musculus with 33 samples.

Results

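Bulk RNA-seq of Kupffer cells (KCs), the resident macrophages (macs) of the liver, was used to compare the Tim4- and the Tim4+ KCs of mice lacking Zeb2 in KCs. Of the 33 samples in the series, the 12 compared here were 6 labelled Tim4- and 6 labelled Tim4+, chosen by their labels and paired by the replicate number in their titles, and all 24421 gene rows of their count files were used. Both groups were sorted from livers carrying Clec4f-cre and Zeb2 fl/fl (CRE+), in which Cre is made from the locus of Clec4f, a KC lectin, and removes the floxed part of the Zeb2 alleles where it is active. The 6 CRE- KC samples, which carry the floxed alleles (Zeb2 fl/fl) but no Cre, are given as background levels without a test. Mice were young adults of both sexes on a C57Bl/6 background. The labels do not say whether samples of the same number came from the same mouse. The p-values measure the spread of the difference between the sorts over the 6 replicate numbers, whatever these stand for. As a model of Zeb2 loss, each CRE+ sort can be a mixture: the study describes CRE+ KCs that keep a Zeb2 allele beside those that lost both, and a small B cell population that this Cre also targets. The share of such cells in each sort cannot be read from these counts.

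ZEB2 is a zinc finger repressor that binds E-box sequences and is known from epithelial-mesenchymal transition, where it silences epithelial junction genes. KCs self-maintain in the liver sinusoids, beside the fenestrated sinusoidal endothelium, where they take up bacteria, complement-coated particles, aged red cells and apoptotic bodies. Tim4, encoded by Timd4, is a phosphatidylserine receptor that long-resident KCs carry and that macs newly derived from circulating monocytes acquire late. Monocytes are known for the chemokine receptors CCR2 and CX3CR1.

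The sort on Tim4 could be read in the counts. Timd4, on chromosome 11 from 46810786 to 46844333 of GRCm38.p6, had 0.234 to 8.47 CPM (median 1.42) in the 6 Tim4- samples, 279.7 to 449.9 CPM (median 401) in the 6 Tim4+ samples and 681 to 785 CPM (median 733) in the 6 CRE- samples, where CPM are counts scaled to a common library size with TMM factors over the 18 KC samples. Its log2 fold change of -7.56, always given here as Tim4- minus Tim4+, follows from the sort and is no finding. Clec4f, the defining KC lectin and the locus that carries the Cre, had 2766 to 4147 CPM (median 3823) in Tim4- samples, 4209 to 5359.6 CPM (median 4819) in Tim4+ samples and 10649 to 12467 CPM (median 11197) in CRE- samples, so both sorts carried this marker at levels below all CRE- samples. Every Tim4- sample lay below every Tim4+ sample for Clec4f (log2 fold change -0.40, adjusted p = 2.67e-04 in edgeR's test). The Zeb2 gene was counted at 152 to 199 CPM in Tim4- samples, 149 to 216 CPM in Tim4+ samples and 239 to 347 CPM in CRE- samples (log2 fold change -0.04, SE 0.084, adjusted p = 0.812 between the sorts in edgeR's test). A count over the whole gene also takes in reads outside the floxed part, so it does not check the deletion. The samples held 9837240 to 24332306 reads on genes, the shallowest being Tim4- replicate 1. Replicates 1 to 4 of each group had counts on Xist and replicates 5 and 6 had none, so sex moved with the replicate number and not with the sort.

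Of 12112 genes that passed edgeR's filter on low counts, 87 (0.718%) were higher and 635 (5.24%) lower in Tim4- than in Tim4+ KCs. A gene was called at a Benjamini-Hochberg adjusted p below 0.05 in edgeR's quasi-likelihood test with the replicate number as a block, together with a log2 fold change beyond 1 in either direction. With the adjusted p alone and no limit on the fold change, 719 genes (5.94%) were higher and 1066 (8.8%) lower. The median log2 fold change of all tested genes was -0.0042, so the scaling placed most genes at no difference. In these bulk samples, fewer cells of a kind and less RNA per cell cannot be told apart. Of the 87 higher genes, 77 were higher in all 6 pairs, and 28 had every Tim4- sample above every Tim4+ sample. Of the 635 lower genes, 586 were lower in all 6 pairs, and 413 had every Tim4- sample below every Tim4+ sample, while over all tested genes 1.60% were wholly above and 4.39% wholly below. The median log2 fold change of the called genes was 1.26 for the higher and -1.93 for the lower ones, and in the plot of fold change against level the lower genes reach further from 0.

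**Figure D1:**
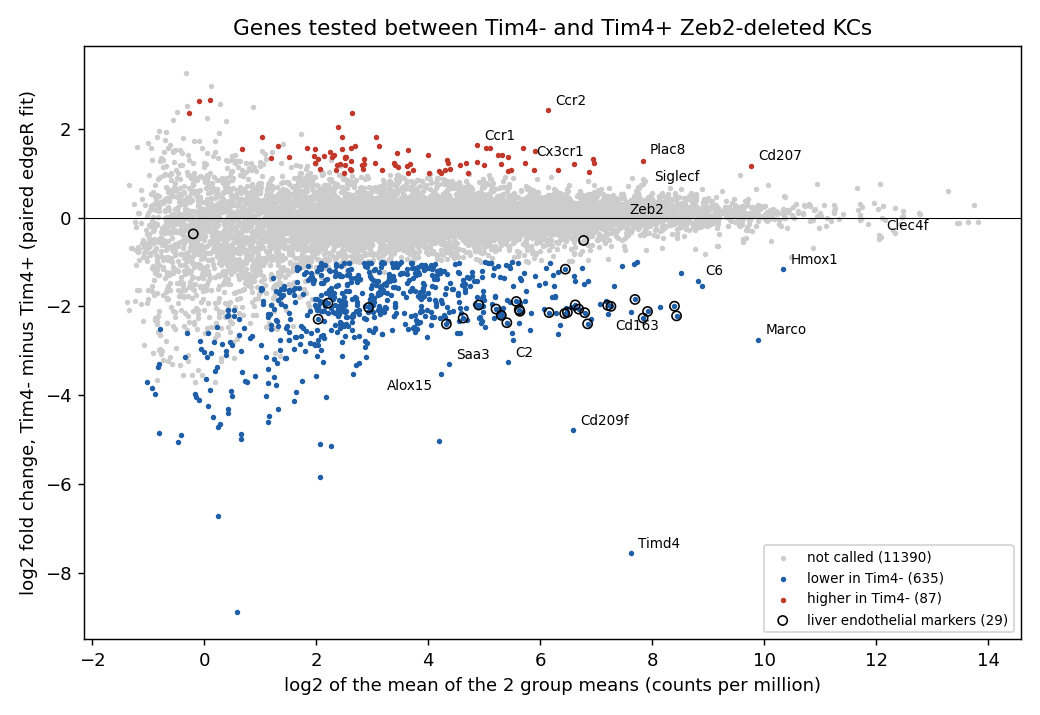
Log2 fold change of each of 12112 tested genes (Tim4- minus Tim4+, paired edgeR fit, vertical axis) against the log2 of the mean of the 2 group means in CPM (horizontal axis). Red points are the 87 genes called higher, blue the 635 called lower and grey the rest, and circles mark the 29 tested liver endothelial markers, 27 of which lie among the lower genes.

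The CRE- KCs differed in place between the directions. Of the 87 genes higher in Tim4- KCs, 72 had a mean in the CRE- samples below both CRE+ means, 15 lay between them and 0 lay above both. Of the 635 lower genes, 516 had a CRE- mean between those of the Tim4- and the Tim4+ KCs, 112 had a CRE- mean above both and 7 below both. Over all 12112 tested genes the shares were 33.8% below both, 30.1% between and 36.1% above both. Called genes were chosen for a wide gap between the CRE+ means, so a CRE- mean falls between those more easily than over all genes. The numbers above are counts of group means without a test.

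Chemokine receptors of monocytes were among the largest increases. Ccr2, the receptor for CCL2 through which monocytes leave the bone marrow, on chromosome 9 from 124101918 to 124109140 of GRCm38.p6, had 59.8 to 162 CPM (median 119) in Tim4- KCs, 10.2 to 30.7 CPM (median 23.8) in Tim4+ KCs and 2.37 to 7.56 CPM (median 5.21) in CRE- KCs. Every Tim4- sample lay above every Tim4+ sample, and every Tim4+ sample above every CRE- sample, with Tim4- levels 3.86 to 6.70 times those of the paired Tim4+ sample (log2 fold change 2.41, SE 0.11, adjusted p = 1.48e-07). Ccr1, a receptor for CCL3 and CCL5, had 7.95 to 117 CPM (median 27.95) in Tim4- KCs against 4.02 to 41.5 CPM (median 9.74) in Tim4+ KCs and 0.283 to 4.91 CPM in CRE- KCs (log2 fold change 1.63, SE 0.17, adjusted p = 4.38e-05). Its ranges overlapped, replicates 4 and 6 being the highest in both sorts, and in 6 of 6 pairs the Tim4- sample was the higher. Cx3cr1, the fractalkine receptor of patrolling monocytes and microglia, had 56.3 to 358 CPM (median 92.5) in Tim4- KCs, 18.9 to 208 CPM (median 37.3) in Tim4+ KCs and 2.65 to 8.97 CPM (median 6.56) in CRE- KCs (log2 fold change 1.23, SE 0.14, adjusted p = 7.56e-05). Replicates 4 and 6 were again the highest of both sorts, at 343 and 358 CPM in Tim4- and 156 and 208 CPM in Tim4+ KCs. Without the replicate block the adjusted p of Cx3cr1 was 0.343 and that of Ccr1 was 0.107.

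Few other genes of the chemokine list were called. Of its 27 tested members, 3 were called higher, which were the 3 receptors above, and 2 lower, against 0.718% and 5.24% of all genes, with a median log2 fold change of 0.21. The lower ones were Cxcl13, a B cell attractant (3.96 to 23.3 CPM in Tim4- KCs, 30.97 to 79.02 CPM in Tim4+ KCs and 146 to 427 CPM in CRE- KCs, log2 fold change -2.47, adjusted p = 7.87e-05), and the atypical chemokine receptor Ackr4 (log2 fold change -2.75, adjusted p = 0.00163), which had at most 2.60 CPM in Tim4- KCs. Ccl3 and Ccl4, ligands that attract monocytes and other leukocytes, passed the adjusted p but not the fold limit, with log2 fold changes of 0.86 and 0.74.

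Of the 16 monocyte markers tested, 4 were called higher and 1 lower, against 0.718% and 5.24% of all genes, with a median log2 fold change of 0.30. Beside Ccr2 and Cx3cr1, the higher ones were Plac8 and Ms4a4c. Plac8, an abundant transcript of inflammatory monocytes, had 183 to 649 CPM (median 236) in Tim4- KCs and 65.7 to 282 CPM (median 112) in Tim4+ KCs, while CRE- KCs ranged from 58.4 to 299.8 CPM and overlapped both (log2 fold change 1.26, SE 0.12, adjusted p = 1.70e-05). Ms4a4c, a membrane protein of the CD20 family, had 51.6 to 147 CPM (median 83.2) against 16.4 to 56.3 CPM (median 28.7) and 14.3 to 38.2 CPM in CRE- KCs (log2 fold change 1.49, SE 0.11, adjusted p = 2.05e-06). The lower marker was Fn1, fibronectin, at 5.86 to 20.8 CPM in Tim4- KCs and 16.8 to 206 CPM in Tim4+ KCs (log2 fold change -2.60, adjusted p = 8.13e-05). Its Tim4+ level was 2.87 to 20.7 times the paired Tim4- level, with the largest ratio in replicate 4. Fn1 is also a member of the peritoneal macrophage list described below. Ly6c2, which defines classical monocytes, was counted at no more than 0.437 CPM in any Tim4- and 1.79 CPM in any Tim4+ sample, and Vcan had no count in any of the 12 samples, which allows at most 0.305 CPM in the shallowest library at 3 counts.

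The 12 largest increases under the rule for named genes were Ccr2, Ccr1 and Ms4a4c and the 9 genes that follow. Gpr141, an orphan G protein-coupled receptor of myeloid cells, had 5.85 to 16.03 CPM (median 9.71) in Tim4- KCs against 0.767 to 4.16 CPM (median 1.88) in Tim4+ KCs, without overlap (log2 fold change 2.36, SE 0.25, adjusted p = 5.15e-05). Hsh2d, a haematopoietic SH2 adaptor, had 5.27 to 19.2 CPM (median 13.5) against 2.13 to 4.81 CPM (median 3.68) and at most 0.928 CPM in CRE- KCs (log2 fold change 1.82, SE 0.22, adjusted p = 1.17e-04). Tspan32, a tetraspanin, had 54.8 to 99.7 CPM (median 77.9) against 15.2 to 51.8 CPM (median 25.2), and Sirpb1a, an activating receptor of the SIRP family, 36.3 to 68.5 CPM (median 45.1) against 10.2 to 23.7 CPM (median 17.3), both without overlap. Their log2 fold changes were 1.56 and 1.56, with adjusted p = 4.38e-05 and 8.02e-05. Napsa, an aspartic protease, Gdf3, a ligand of the TGF-beta family, Arhgap22, a GTPase activator for Rac, Tmem119, a transmembrane protein used to mark microglia, and Tes, a focal adhesion protein, complete the 12, with log2 fold changes between 1.41 (Tes) and 1.62 (Arhgap22). Each was higher in 6 of 6 pairs. Tmem119 was set apart by Tim4- replicate 4, at 49.99 CPM against 5.99 to 17.7 CPM in the other Tim4- samples, and without the replicate block its adjusted p was 0.0535.

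**Figure D2:**
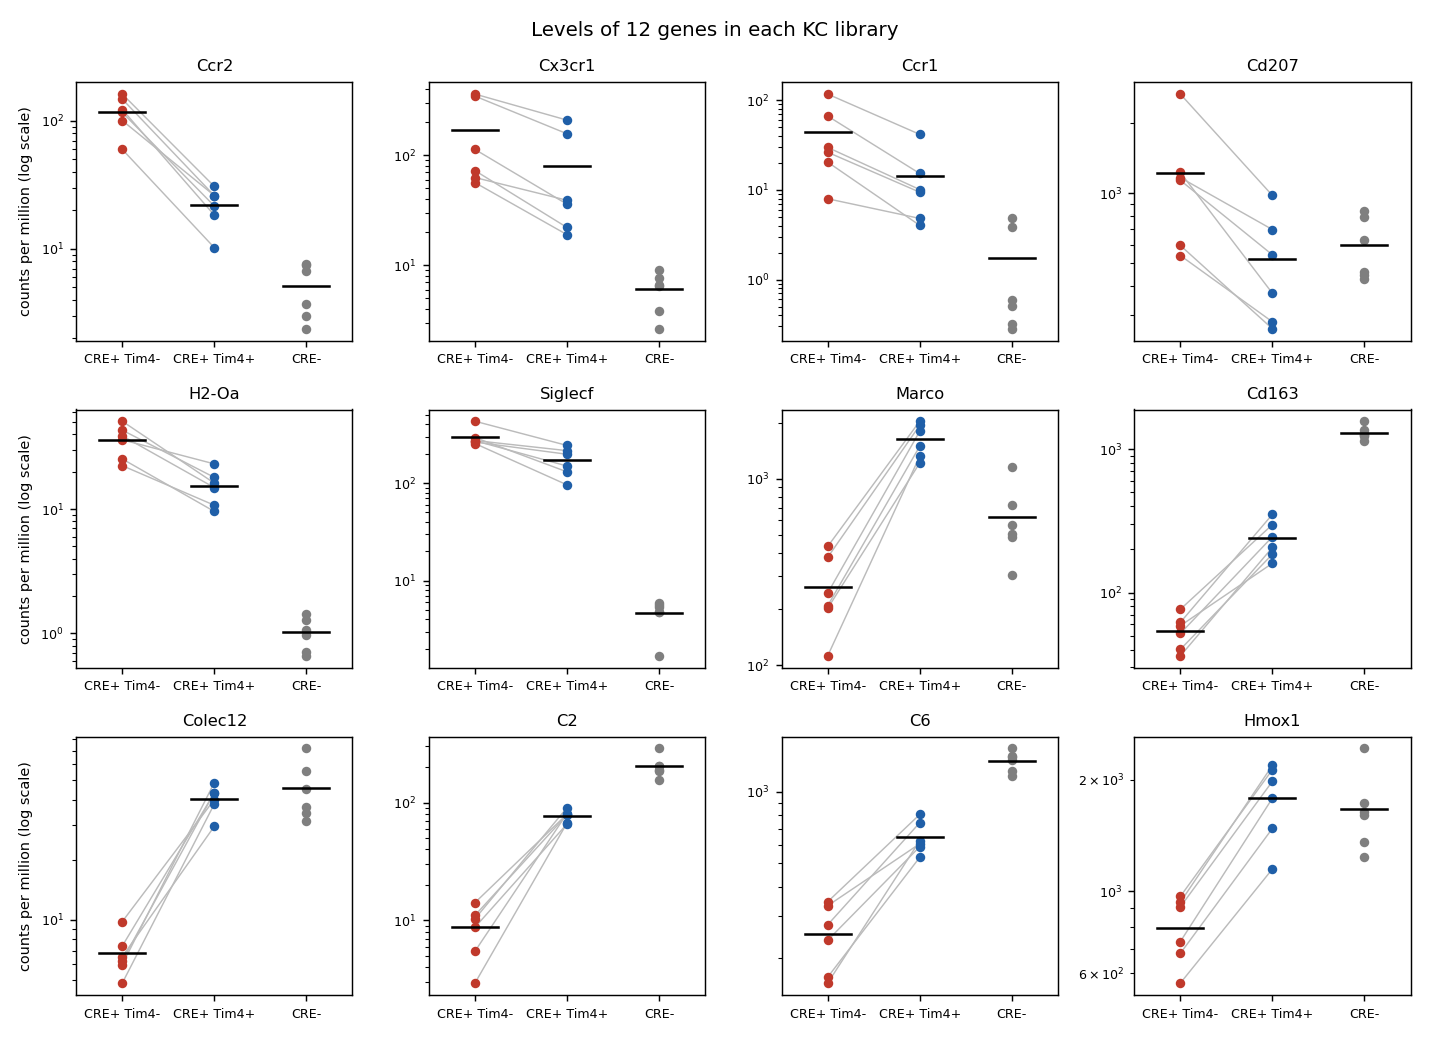
CPM (log scale, vertical axis) of 12 genes in the 6 Tim4- (red), 6 Tim4+ (blue) and 6 CRE- (grey) KC samples; grey lines join samples of the same replicate number and black bars are group means. Ccr2 separates the 3 groups in every sample, Marco is highest in Tim4+ KCs, and Cd163 is at 1143 to 1570.1 CPM in CRE- KCs, above every CRE+ sample.

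Promoter windows of Ccr2 and Hsh2d, among the largest increases, of Timd4, the gene of the sort, and of Raver2, among the largest decreases, are shown because ZEB2 is known to bind the E-box CACCTG, which reads CAGGTG on the opposite strand. Each runs from 250 bases before to 50 bases after the RefSeq start site (GRCm38.p6), on the plus strand for all 4 genes, at chr9:124101933-124102232, chr8:72189418-72189717, chr11:46810549-46810848 and chr4:101068788-101069087, with a match to the E-box in capitals. The start site that the promoter table gives for Ccr2 lies downstream of the gene start given above, so its window falls inside the gene as annotated and not before it.
Ccr2: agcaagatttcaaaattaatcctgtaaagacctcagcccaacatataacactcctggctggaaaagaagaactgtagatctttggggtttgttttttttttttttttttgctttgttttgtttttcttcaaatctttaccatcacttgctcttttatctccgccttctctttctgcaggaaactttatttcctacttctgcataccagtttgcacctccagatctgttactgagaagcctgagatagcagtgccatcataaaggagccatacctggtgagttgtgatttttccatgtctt
Hsh2d: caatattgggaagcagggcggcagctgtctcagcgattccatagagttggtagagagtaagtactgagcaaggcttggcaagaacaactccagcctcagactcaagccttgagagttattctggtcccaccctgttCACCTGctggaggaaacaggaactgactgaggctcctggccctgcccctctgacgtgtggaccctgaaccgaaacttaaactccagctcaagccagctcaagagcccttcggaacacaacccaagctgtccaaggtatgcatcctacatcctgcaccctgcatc
Timd4: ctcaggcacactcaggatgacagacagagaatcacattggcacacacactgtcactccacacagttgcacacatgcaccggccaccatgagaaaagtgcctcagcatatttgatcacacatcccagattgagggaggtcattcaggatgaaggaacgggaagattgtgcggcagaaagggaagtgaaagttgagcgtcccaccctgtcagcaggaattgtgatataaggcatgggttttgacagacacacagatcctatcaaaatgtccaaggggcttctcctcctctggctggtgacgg
Raver2: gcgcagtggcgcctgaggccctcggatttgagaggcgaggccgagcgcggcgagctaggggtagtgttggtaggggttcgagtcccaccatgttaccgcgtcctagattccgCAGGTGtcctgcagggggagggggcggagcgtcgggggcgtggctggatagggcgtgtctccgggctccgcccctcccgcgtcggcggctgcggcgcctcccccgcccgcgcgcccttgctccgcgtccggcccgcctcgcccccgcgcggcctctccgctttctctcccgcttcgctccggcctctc
The Hsh2d match starts 114 bases and the Raver2 match 138 bases before the start site, and the windows of Ccr2 and Timd4 held none of these letters. A match on either strand was found in 5413 of all 27025 promoters of the table (20.03%), in 16.3% of the 9290 promoters of tested genes, in 17 of the 67 promoters of genes called higher (25.4%) and in 83 of the 449 of genes called lower (18.5%). These shares were not tested, and a match is not a site of binding.

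Siglecf and Ms4a1, which encode SiglecF and CD20 and by whose proteins the study told KCs without Zeb2 from those keeping an allele, were lower in every CRE- sample than in every sample of both sorts. Siglecf had 255 to 431 CPM (median 273) in Tim4- KCs, 95.9 to 243 CPM (median 174) in Tim4+ KCs and 1.68 to 5.89 CPM (median 5.05) in CRE- KCs, and Ms4a1 had 108 to 185 CPM (median 149), 61.1 to 118 CPM (median 76.5) and 1.23 to 9.88 CPM (median 4.94) in the same order. Both passed the adjusted p but not the fold limit (log2 fold change 0.82, SE 0.12, adjusted p = 4.84e-04 for Siglecf, and log2 fold change 0.83, SE 0.12, adjusted p = 5.78e-04 for Ms4a1), and both were higher in the Tim4- sample of 6 of 6 pairs. The Tim4- level was 1.27 to 2.65 times the paired Tim4+ level for Siglecf and 1.14 to 2.40 times for Ms4a1. Of the 7 Siglec genes tested, 0 were called in either direction, and Siglec1, the sialoadhesin of resident macs, had 345 to 642 CPM against 437 to 649 CPM (log2 fold change -0.13, adjusted p = 0.241). In the Ms4a family 1 of 8 was called higher, Ms4a4c, and 1 lower, Ms4a8a (8.16 to 26.1 CPM against 22.5 to 55.9 CPM, log2 fold change -1.21, adjusted p = 2.71e-05). The shares over all genes were 0.718% higher and 5.24% lower.

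B cell and eosinophil genes are given beside these markers because Ms4a1 and Siglecf belong to those cells. Of 8 tested B cell markers, 1 was called higher, Cd79b, a chain of the B cell receptor, with 41.6 to 81.6 CPM (median 62.5) in Tim4- KCs, 15.1 to 31.1 CPM (median 23.9) in Tim4+ KCs and 40.5 to 60.9 CPM (median 48.1) in CRE- KCs (log2 fold change 1.36, SE 0.091, adjusted p = 1.50e-06). The CRE- samples overlapped the Tim4- range and all lay above every Tim4+ sample. Cd22, an inhibitory Siglec of B cells, passed the adjusted p downwards (log2 fold change -0.95, adjusted p = 8.86e-05). Pax5, the factor of B cell identity, was at no more than 0.414 CPM in any CRE+ sample. The summed level of the 10 markers was 177 to 323 CPM (median 260.4) in Tim4- and 153 to 177 CPM (median 164) in Tim4+ KCs, and Ms4a1 is part of that sum. Among eosinophil markers, Epx and Ear6 had no count in any of the 12 samples and Prg2 reached at most 0.240 CPM, while Ccr3, the eotaxin receptor, had 146 to 699 CPM (median 381) in Tim4- KCs, 112 to 608 CPM (median 287) in Tim4+ KCs and 44.1 to 63.05 CPM (median 54.5) in CRE- KCs. Ccr3 passed the adjusted p but not the fold limit (log2 fold change 0.33, adjusted p = 0.00354), and of the 3 eosinophil markers tested 1 was called, Alox15, which is described below with the lower genes.

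Genes of MHC class II antigen presentation were higher in Tim4- KCs as a group, by small amounts. All 11 tested members passed the adjusted p upwards, against 5.94% of all genes, and 1 passed the fold limit, with a median log2 fold change of 0.67 against -0.0042 over all genes. H2-Oa, a chain of the DM inhibitor H2-O, had 22.3 to 50.7 CPM (median 37.4) in Tim4- KCs, 9.56 to 23.04 CPM (median 15.5) in Tim4+ KCs and 0.660 to 1.44 CPM (median 1.02) in CRE- KCs (log2 fold change 1.22, SE 0.14, adjusted p = 7.87e-05). The chains of the I-A molecule, H2-Aa and H2-Ab1, had log2 fold changes of 0.67 and 0.75, the invariant chain Cd74 0.60, and Ciita, the transactivator of the group, 0.71. The summed level was 24460.0 to 37039 CPM (median 27527) in Tim4- KCs, 12377 to 23079 CPM (median 20413) in Tim4+ KCs and 10795 to 24834 CPM (median 15630.0) in CRE- KCs, and it was higher in the Tim4- sample of 6 of 6 pairs.

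The interferon, cell cycle and stress lists had most members above 0, against 49.3% of all tested genes. Their counts stand against 5.94% of all genes past the adjusted p upwards and 8.8% downwards, with 0.718% called higher. Of 17 type I interferon-stimulated genes, 9 passed the adjusted p upwards and 0 downwards, and 1 passed the fold limit: Ifi44, with 94.5 to 236 CPM (median 158) against 51.5 to 112 CPM (median 74.4) (log2 fold change 1.03, SE 0.084, adjusted p = 6.00e-06), although without replicate 5 its log2 fold change was 0.98. The antiviral regulator Irf7 (0.35), the deISGylase Usp18 (0.64) and Isg15 (0.62) were among the others that passed. Of 22 cell cycle genes, 13 passed the adjusted p upwards and 0 by the fold limit, all 22 had log2 fold changes above 0, from 0.17 to 0.76, and the median was 0.50. Ccna2, cyclin A2 of S and G2 phases, had 25.9 to 67.2 CPM in Tim4- KCs and 17.2 to 40.1 CPM in Tim4+ KCs (log2 fold change 0.76, adjusted p = 0.00172), while Mki67, at 14.3 to 29.5 CPM and 4.99 to 20.8 CPM, did not pass (log2 fold change 0.53, adjusted p = 0.262). The summed cell cycle level of each Tim4- sample was 1.21 to 1.68 times that of its pair. Of 18 immediate-early and dissociation-stress genes, which tissue digestion induces, 9 passed the adjusted p upwards and 0 by the fold limit (median 0.39), with Fos (log2 fold change 0.92, adjusted p = 0.00112) and Egr1 (log2 fold change 0.67, adjusted p = 6.95e-04) the furthest. This list moved with the other higher groups, and its part in them was not tested.

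Markers of other liver cells moved with the sort and are given before the lower genes. Of 29 tested markers of liver endothelium, 27 were called lower and 0 higher, against 5.24% lower over all genes, with a median log2 fold change of -2.07. Their summed level was 935 to 1358 CPM (median 1132) in Tim4- KCs, 2957 to 8141 CPM (median 3719.7) in Tim4+ KCs and 1394 to 5204 CPM (median 3224) in CRE- KCs, with that of each Tim4+ sample 2.82 to 5.99 times that of its pair. The Tim4- and Tim4+ ranges did not overlap, no marker was at 0 in all samples of a group, and the CRE- range began just above the Tim4- range and ended inside the Tim4+ range. The defining markers Stab2, a hyaluronan receptor of sinusoidal endothelium, and Kdr, the VEGF receptor, had 72.4 to 127 CPM (median 80.5) and 61.3 to 81.7 CPM (median 75.1) in Tim4- KCs against 218 to 553 CPM (median 299.6) and 193 to 738 CPM (median 318) in Tim4+ KCs. The largest log2 fold changes were those of Wnt2, a ligand made by central vein endothelium (-2.40), Ptprb, a phosphatase of endothelial junctions (-2.39), and Tek, the angiopoietin receptor (-2.37). Of 20 hepatocyte markers 3 were called lower, Mup3, Mup20 and Serpina1c, none of which was called without the replicate block, and 12 passed the adjusted p downwards against 8.8% of all genes (median -0.78), and their sum was 129 to 369 CPM (median 269), 211 to 656 CPM (median 399) and 297 to 735 CPM (median 395) in Tim4-, Tim4+ and CRE- KCs. Of 9 stellate cell and fibroblast markers 1 was called lower (median of the list -0.54), Ecm1 (log2 fold change -1.78, adjusted p = 1.49e-06), with 26.4 to 38.2 CPM, 78.6 to 181 CPM and 187 to 259.8 CPM in the same order. The study lists Ecm1 among genes that differed between embryonic and monocyte-derived KCs, so it is no specific stellate cell marker here. Ecm1 made up most of the summed level of this list in CRE- KCs (213 to 295 CPM). The collagen genes Col1a1 and Col3a1, which define fibroblasts, had means of at most 0.164 and 1.57 CPM in CRE+ KCs.

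Genes known from resident macs of the peritoneal cavity were listed after the largest decreases had been seen, so their values are a description. Of 13 tested, 8 were called lower (median -2.60), against 5.24% of all genes, but the list was chosen with these decreases in view. The 14 genes summed to 68.3 to 95.2 CPM (median 74.96) in Tim4- KCs, 107 to 731 CPM (median 203) in Tim4+ KCs and 59.2 to 292 CPM (median 91.1) in CRE- KCs. The highest sum was that of Tim4+ replicate 4, and among CRE- samples those of replicates 5 and 6, at 292 and 267 CPM. Gata6, the transcription factor that defines these macs, had 0.0508 ± 0.124 CPM (SD, n = 6) in Tim4- and 0.952 ± 1.17 CPM (SD, n = 6) in Tim4+ KCs and did not pass the filter. Alox15, a lipoxygenase of these macs and of eosinophils, had 0 to 5.69 CPM (median 3.19) in Tim4- KCs, 5.80 to 87.3 CPM (median 31.4) in Tim4+ KCs and 0 to 47.8 CPM (median 4.26) in CRE- KCs (log2 fold change -3.52, SE 0.65, adjusted p = 0.00276). Saa3, an acute-phase apolipoprotein, had 0 to 7.46 CPM (median 0.888) and 2.44 to 215 CPM (median 4.73) (log2 fold change -3.29, SE 0.53, adjusted p = 0.00106), the 215 CPM of Tim4+ replicate 4 standing apart from the 2.44 to 5.65 CPM of the other Tim4+ samples. Without replicate 4 the log2 fold change of Saa3 was -2.89 and that of Alox15 -2.99, with adjusted p = 0.0328 and 0.00607. The part of endothelial, hepatocyte and peritoneal cells in the lower genes below was not tested.

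**Figure D3:**
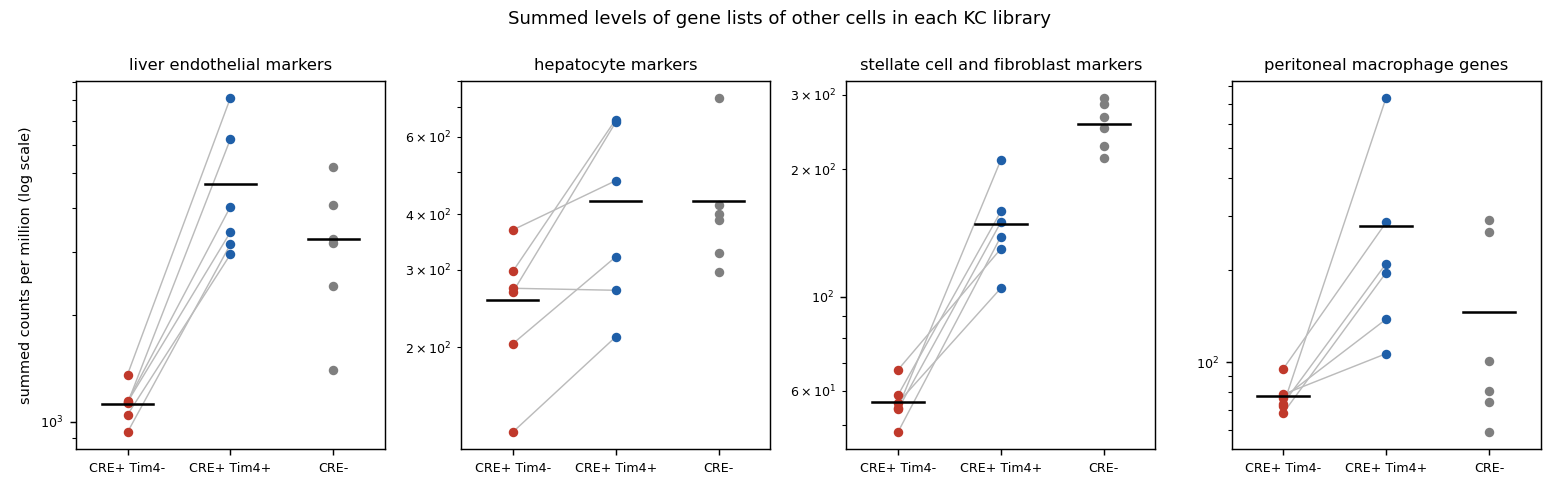
Summed CPM (log scale, vertical axis) of 4 gene lists in the 6 Tim4- (red), 6 Tim4+ (blue) and 6 CRE- (grey) KC samples; grey lines join samples of the same replicate number and black bars are means. The endothelial sum of every Tim4+ sample (2957 to 8141 CPM) lies above every Tim4- sample (935 to 1358 CPM). The stellate sum includes Ecm1, which the study lists as differing between embryonic and monocyte-derived KCs. The peritoneal list was added after the values had been seen.

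Part of the KC identity list was lower in Tim4- KCs. Of 28 tested members, 6 were called lower and 1 higher, 13 passed the adjusted p downwards and 3 upwards, against 5.24% and 0.718% called and 8.8% and 5.94% past the adjusted p over all genes, and the median log2 fold change was -0.21. The lower ones were Cd209f, Marco, Cd163, Pcolce2, C6 and Hmox1. The summed level of the whole list was 31943 to 42292 CPM (median 34849) in Tim4- KCs, 38303 to 46715 CPM (median 41147) in Tim4+ KCs and 52210.0 to 55306 CPM (median 53152) in CRE- KCs. Pcolce2, a procollagen proteinase enhancer, had 30.2 to 49.9 CPM (median 35.9), 70.8 to 139 CPM (median 118) and 211 to 283 CPM (median 235) in Tim4-, Tim4+ and CRE- KCs, with no overlap between the groups (log2 fold change -1.55, SE 0.14, adjusted p = 1.15e-05). Kcna2, a potassium channel, and Cdh5, VE-cadherin, which is made by KCs and by endothelium, passed the adjusted p but not the fold limit, at log2 fold change -0.96, adjusted p = 1.56e-04 and log2 fold change -0.50, adjusted p = 0.00214. So did Vsig4, a complement receptor (log2 fold change -0.68, adjusted p = 2.87e-05). Cd5l, an apoptosis inhibitor secreted by macs, was past the adjusted p here (log2 fold change -0.29, adjusted p = 0.0291) but not without the replicate block (adjusted p = 0.164), with upper-quartile factors (0.0518) or without replicate 3, 4, 5 or 6 (0.0526 to 0.114).

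Other members of the KC identity list did not pass the adjusted p in either direction. Nr1h3, which encodes LXR-alpha, had 525 to 831 CPM (median 609) in Tim4- KCs, 541 to 814 CPM (median 677) in Tim4+ KCs and 806 to 1053 CPM (median 889.9) in CRE- KCs (log2 fold change -0.05, SE 0.082, adjusted p = 0.763). Il18bp, the decoy of interleukin 18, had 477 to 617 CPM against 472 to 668 CPM (log2 fold change -0.14, adjusted p = 0.147), and the iron exporter Slc40a1 had log2 fold change -0.11, adjusted p = 0.109. Adgre1, which encodes the mac marker F4/80, was at 2941 to 4533 CPM (median 3217) and 2867 to 4183 CPM (median 3106) (log2 fold change 0.06, adjusted p = 0.462). The member called higher was Cd207, langerin, with 541 to 2671 CPM (median 1153) in Tim4- KCs, 262 to 979.6 CPM (median 458) in Tim4+ KCs and 430.3 to 844 CPM (median 545) in CRE- KCs (log2 fold change 1.17, SE 0.11, adjusted p = 1.45e-05). Its Tim4- level was 1.67 to 3.30 times that of the paired sample, while levels differed between replicates within each sort, and without the replicate block its adjusted p was 0.0568.

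Scavenger receptors were lower in part. Of the 13 scavenger receptors tested, 0 were called higher and 4 lower, against 0.718% and 5.24% of all genes, with a median log2 fold change of -0.54. By the adjusted p alone 7 were lower and 0 higher, against 8.8% and 5.94% of all genes. The summed level was the higher in the Tim4- sample of 0 of 6 pairs. Marco, a class A receptor for bacteria and particles, had 112 to 434 CPM (median 226) in Tim4- KCs, 1215 to 2034 CPM (median 1645) in Tim4+ KCs and 304 to 1154 CPM (median 535) in CRE- KCs (log2 fold change -2.75, SE 0.14, adjusted p = 5.38e-07). All Tim4+ samples lay above all CRE- samples, at 4.69 to 11.7 times the level of their paired Tim4- sample. Cd163, the haemoglobin-haptoglobin receptor, had 36.1 to 76.4 CPM (median 55.2), 160.0 to 351 CPM (median 226) and 1143 to 1570.1 CPM (median 1269.8) in Tim4-, Tim4+ and CRE- KCs (log2 fold change -2.17, SE 0.13, adjusted p = 1.49e-06), so the groups were ordered without overlap and CRE- KCs were the highest. Colec12, a collectin-type scavenger receptor that endothelium also expresses, had 4.83 to 9.81 CPM (median 6.40) and 29.4 to 48.7 CPM (median 41.6) (log2 fold change -2.60, SE 0.16, adjusted p = 1.50e-06). Stab1, which macs and sinusoidal endothelium share, had 111 to 167 CPM (median 126) and 183 to 438 CPM (median 259) (log2 fold change -1.05, SE 0.15, adjusted p = 4.96e-04), and it fell inside the fold limit without replicate 2 or 3. Mrc1, the mannose receptor, and Cd36 passed the adjusted p but not the fold limit, at -0.54 and -0.83, and Msr1, the other class A receptor, did not pass (log2 fold change -0.13, adjusted p = 0.281).

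The complement list held 7 called decreases among its 22 tested members, with 0 called higher, against 5.24% lower and 0.718% higher over all genes, and a median log2 fold change of -0.22. C2, the protease precursor of the classical pathway convertase, on chromosome 17 from 34862602 to 34882100 of GRCm38.p6, had 2.94 to 14.1 CPM (median 9.53) in Tim4- KCs, 65.8 to 90.5 CPM (median 79.2) in Tim4+ KCs and 155 to 288 CPM (median 197) in CRE- KCs (log2 fold change -3.25, SE 0.22, adjusted p = 1.52e-06). C6, a component of the membrane attack complex, had 157 to 345 CPM (median 257), 530.2 to 803 CPM (median 614) and 1167 to 1522 CPM (median 1378) in the same order (log2 fold change -1.43, SE 0.12, adjusted p = 6.93e-06). For both genes the groups were ordered without overlap. C4b, the partner of C2 (log2 fold change -1.26, adjusted p = 6.00e-06), was also lower. Serping1, the C1 inhibitor, was lower at 0.206 to 2.75 CPM against 2.67 to 7.45 CPM (log2 fold change -1.63, adjusted p = 0.0207), and it was not called without replicate 3, without replicate 4 or without the replicate block. The membrane inhibitors Cd55 and Cd59a were lower too: Cd55 had 10.9 to 65.4 CPM (median 16.3), 78.5 to 204 CPM (median 136) and 49.2 to 139 CPM (median 84.3) (log2 fold change -2.61, SE 0.21, adjusted p = 6.00e-06), with Tim4- replicate 1 the highest of its group, and Cd59a had 5.79 to 15.9 CPM against 22.002 to 50.3 CPM (log2 fold change -1.74, adjusted p = 6.80e-05). The recognition chains C1qa, C1qb and C1qc had log2 fold changes of -0.0044, 0.033 and 0.014 and did not pass. Itgax, a chain of complement receptor 4, passed the adjusted p upwards (log2 fold change 0.88, adjusted p = 0.00301).

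Heme and iron genes were called in few cases. Of the 17 heme and iron genes tested, 0 were called higher and 2 lower (median -0.11), against 0.718% and 5.24% of all genes. By the adjusted p alone 6 were lower and 0 higher, against 8.8% and 5.94% of all genes. The summed level was the higher in the Tim4- sample of 0 of 6 pairs. The 2 called genes were Cd163 and Hmox1. Hmox1, heme oxygenase 1, had 564 to 968 CPM (median 819) in Tim4- KCs, 1148 to 2188 CPM (median 1882) in Tim4+ KCs and 1240.4 to 2432 CPM (median 1619) in CRE- KCs, and the Tim4+ level was 2.03 to 2.44 times the paired Tim4- level (log2 fold change -1.17, SE 0.053, adjusted p = 1.48e-07). Slc48a1, which moves heme out of the phagolysosome, passed the adjusted p at -0.71, and Spic, the transcription factor of iron-recycling macs, did not pass (log2 fold change -0.08, adjusted p = 0.549).

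Among 21 tested C-type lectins, Cd207 was called higher and 2 were called lower, against 0.718% and 5.24% of all genes, with a median log2 fold change of 0.0093. The lower ones lie close together on chromosome 8, Cd209f at 4102784 to 4105838 and Cd209g at 4134246 to 4137707 (GRCm38.p6), both of the DC-SIGN family of pathogen receptors. Cd209f had 0.671 to 28.8 CPM (median 5.42) in Tim4- KCs, 48.7 to 319.5 CPM (median 204) in Tim4+ KCs and 42.3 to 77.8 CPM (median 73.2) in CRE- KCs (log2 fold change -4.78, SE 0.34, adjusted p = 2.05e-06). Cd209g had 0 to 3.40 CPM (median 1.01), 4.69 to 61.02 CPM (median 38.95) and 4.82 to 17.7 CPM (median 13.2) (log2 fold change -5.04, SE 0.53, adjusted p = 4.40e-05), with 3 Tim4- samples at 0. Replicate 4 was the highest of both sorts for both genes, and the ratio of Tim4+ to Tim4- Cd209f within pairs was 11.1 to 96.01. As members of a family of close paralogs, they could share reads that the counting left out. Their relatives Cd209a and Cd209b had log2 fold changes of 1.89 and -1.99 and did not pass, at means of at most 5.71 CPM.

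Genes for the uptake of apoptotic cells and for lipid handling were called lower in a few cases. Over all genes, 0.718% were called higher and 5.24% lower, and by the adjusted p alone 5.94% were higher and 8.8% lower. By the adjusted p alone 8 uptake genes and 6 lipid handling genes were lower, and 0 of either list higher. The summed level was the higher in the Tim4- sample of 1 of 6 pairs for uptake and 0 of 6 for lipid handling. Of the 22 uptake genes tested, 0 were called higher and 3 lower (median -0.17). These were Mfge8 (4.02 to 11.8 CPM against 12.9 to 34.4 CPM, log2 fold change -1.79, adjusted p = 6.93e-04) and Gas6 (17.7 to 78.1 CPM against 60.5 to 153 CPM, log2 fold change -1.30, adjusted p = 0.00288), secreted bridging proteins between phosphatidylserine and phagocyte receptors, and Stab1. The receptor Axl passed the adjusted p at -0.19 and its relative Mertk did not (log2 fold change -0.17, adjusted p = 0.260). Of the 15 lipid handling genes tested, 0 were called higher and 2 lower (median -0.29), the lower ones being the fatty acid binding proteins Fabp4 (9.05 to 27.8 CPM (median 10.5) against 33.5 to 43.4 CPM (median 36.6), log2 fold change -1.60, adjusted p = 2.01e-04) and Fabp5 (9.56 to 32.01 CPM (median 12.3) against 21.8 to 38.1 CPM (median 27.9), log2 fold change -1.04, adjusted p = 0.00172). Fabp5 fell inside the fold limit without the replicate block, at -0.94, and without replicate 2 or 3. Trem2, a lipid-sensing receptor, passed the adjusted p at -0.81. Mfge8, Gas6, Stab1 and Fabp4 are also expressed by endothelium, whose markers were higher in the same Tim4+ samples.

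The BMP and TGF-beta, Notch and integrin lists held a few called decreases and no called increase, where all genes held 5.24% and 0.718%. Of the 24 BMP and TGF-beta pathway genes tested, 0 were called higher and 5 lower (median -0.22), against 0.718% and 5.24% of all genes. The ligands Bmp2 (-1.97) and Bmp6 (-2.41) and the co-receptors Eng (-1.98) and Tgfbr3 (-2.13) were called lower, with their log2 fold changes in parentheses, and Bmp2 and Eng are also members of the endothelial list. Within pairs the Tim4+ level was 3.35 to 14.98 times the Tim4- level for Bmp6 and 1.91 to 9.47 times for Tgfbr3. The same ratio of the summed endothelial markers was 2.82 to 5.99. The part of endothelial RNA in the called genes of the BMP, Notch and integrin lists was not tested. Bmpr1a, the type I BMP receptor, had 0 to 0.961 CPM (median 0) in Tim4- KCs, 4.20 to 15.4 CPM (median 6.93) in Tim4+ KCs and 25.9 to 38.1 CPM (median 29.99) in CRE- KCs (log2 fold change -5.83, SE 0.80, adjusted p = 3.32e-04), with 4 Tim4- samples at 0. The BMP targets Id1 and Id3, both inhibitors of bHLH factors, passed the adjusted p upwards at 0.64 and 0.38. Of the 15 Notch pathway genes tested, 0 were called higher and 3 lower (median -0.27): the ligand Dll4 (log2 fold change -2.58, adjusted p = 1.38e-04), the receptor Notch4 (log2 fold change -1.43, adjusted p = 0.00892) and the feedback inhibitor Nrarp (log2 fold change -2.10, adjusted p = 0.0463, not called without the replicate block or without replicate 2, 3, 4 or 6), while Rbpj, the DNA-binding effector, and Hes1, a target, had log2 fold changes of 0.20 and 0.15 and did not pass. Of the 16 integrins tested, 0 were called higher and 2 lower, Itga1 (log2 fold change -2.21, adjusted p = 5.36e-06) and Itga8 (log2 fold change -2.45, adjusted p = 0.00603), and Itgam, which encodes CD11b, did not pass (log2 fold change 0.16, adjusted p = 0.413).

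The remaining largest decreases were of low or moderate level. Raver2, a ribonucleoprotein, had 0.445 to 2.19 CPM (median 0.823) in Tim4- KCs against 6.50 to 15.6 CPM (median 12.1) in Tim4+ KCs and 14.5 to 29.7 CPM (median 21.8) in CRE- KCs (log2 fold change -3.52, SE 0.33, adjusted p = 1.82e-05). Sdc2, syndecan 2, had 0 to 4.34 CPM (median 1.20) against 6.58 to 22.5 CPM (median 10.1) and 42.03 to 80.1 CPM (median 55.1) in CRE- KCs (log2 fold change -3.28, SE 0.61, adjusted p = 0.00297), and Dcbld1 and Fam84a were likewise highest in CRE- KCs on average (-3.14 and -2.83). Adarb1, an RNA-editing deaminase, and Galnt18, a glycosyltransferase, were instead highest in Tim4+ KCs, at 7.43 to 15.95 CPM and 5.52 to 23.4 CPM, with log2 fold changes of -3.32 and -2.92. For all 6 genes every Tim4- sample was below every Tim4+ sample.

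Several groups central to KCs held no called gene. In the LXR target list 0 of 18 members were called, and 2 passed the adjusted p upwards and 3 downwards (median -0.044). Apoc1, an apolipoprotein gene outside this list, was called lower, with Tim4+ levels 2.16 to 6.31 times the paired Tim4- level. It is described under other observations. Apoe, an LXR-regulated apolipoprotein, had 6818 to 15307 CPM (median 10713) against 8596 to 15484 CPM (median 11217) (log2 fold change -0.11, adjusted p = 0.591), and the cholesterol exporter Abca1 had log2 fold change -0.21, adjusted p = 0.134. The called counts were 0 of 20 for cholesterol synthesis (median 0.029), 0 of 24 for the lysosome (median 0.008), 0 of 19 for glycolysis (median 0.13) and 0 of 25 for macrophage transcription factors (median 0.007), against 0.718% higher and 5.24% lower of all genes. By the adjusted p alone, 4 glycolysis genes were higher and 0 lower, and 4 macrophage transcription factors were higher and 2 lower, against 5.94% higher and 8.8% lower of all genes. The summed level of the Tim4- sample was the higher in 6 of 6 pairs for both lists, at 1.02 to 1.34 times that of its pair for glycolysis and 1.05 to 1.19 times for the transcription factors. Zeb1, the paralog of Zeb2, passed the adjusted p downwards at 6.92 to 15.7 CPM (median 11.7) against 11.98 to 26.3 CPM (median 18.8) (log2 fold change -0.78, adjusted p = 0.0340), but not without replicate 1, 2, 3 or 4 (adjusted p = 0.0634 to 0.121). In the cell death and interleukin 1 list 1 of 18 was called, Bcl2, lower at 1.47 to 3.58 CPM (median 2.15) against 3.28 to 10.8 CPM (median 5.76). Il1b passed the adjusted p upwards (log2 fold change 0.53, adjusted p = 0.00135), Ripk3, the necroptosis kinase, upwards (log2 fold change 0.28, adjusted p = 0.0386) and Il1a downwards (log2 fold change -0.27, adjusted p = 0.0416). None of the 3 passed without the replicate block, where the adjusted p was 0.105 for Il1b, 0.106 for Ripk3 and 0.233 for Il1a, and Ripk3 and Il1a did not pass without replicate 2, 3, 4, 5 or 6 either.

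Epithelial junction genes that ZEB factors repress in other tissues were mostly at low levels in both sorts. Of 23 listed, 10 passed the filter, 1 was called higher and 1 lower, against 0.718% and 5.24% of all genes tested. St14, the protease matriptase, had 2.17 to 12.8 CPM (median 7.29) against 1.39 to 3.86 CPM (median 2.40) and at most 1.55 CPM in CRE- KCs (log2 fold change 1.35, adjusted p = 0.0158), with 5 of 6 pairs higher, and it lost the call without replicate 2, 3 or 6. Ocln, occludin, had 0 to 1.18 CPM (median 0) against 1.22 to 1.95 CPM (median 1.51) (log2 fold change -4.03, adjusted p = 0.0375), and it was not called without replicate 3, 4, 5 or 6 or without the replicate block. Cdh1, E-cadherin, had 3.51 ± 1.97 CPM (SD, n = 6) and 3.14 ± 2.26 CPM (SD, n = 6) and did not pass (log2 fold change 0.18, adjusted p = 0.810).

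The remaining marker lists of other cells had few calls, where 0.718% of all genes were called higher and 5.24% lower. In the T and NK cell list 0 of 11 were called, and Gzma was highest in replicate 3 of both sorts, at 36.3 and 15.4 CPM. In the neutrophil list 0 of 3, in the erythroid and platelet list 0 of 5 and in the dendritic cell list 1 of 7 were called, the last being Zbtb46, a factor that endothelium also expresses (log2 fold change -1.24, adjusted p = 0.0127), which was not called without replicate 2 or 3. Their summed levels were at most 122, 195, 116 and 263 CPM in any CRE+ sample, in that order.

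**Figure D4:**
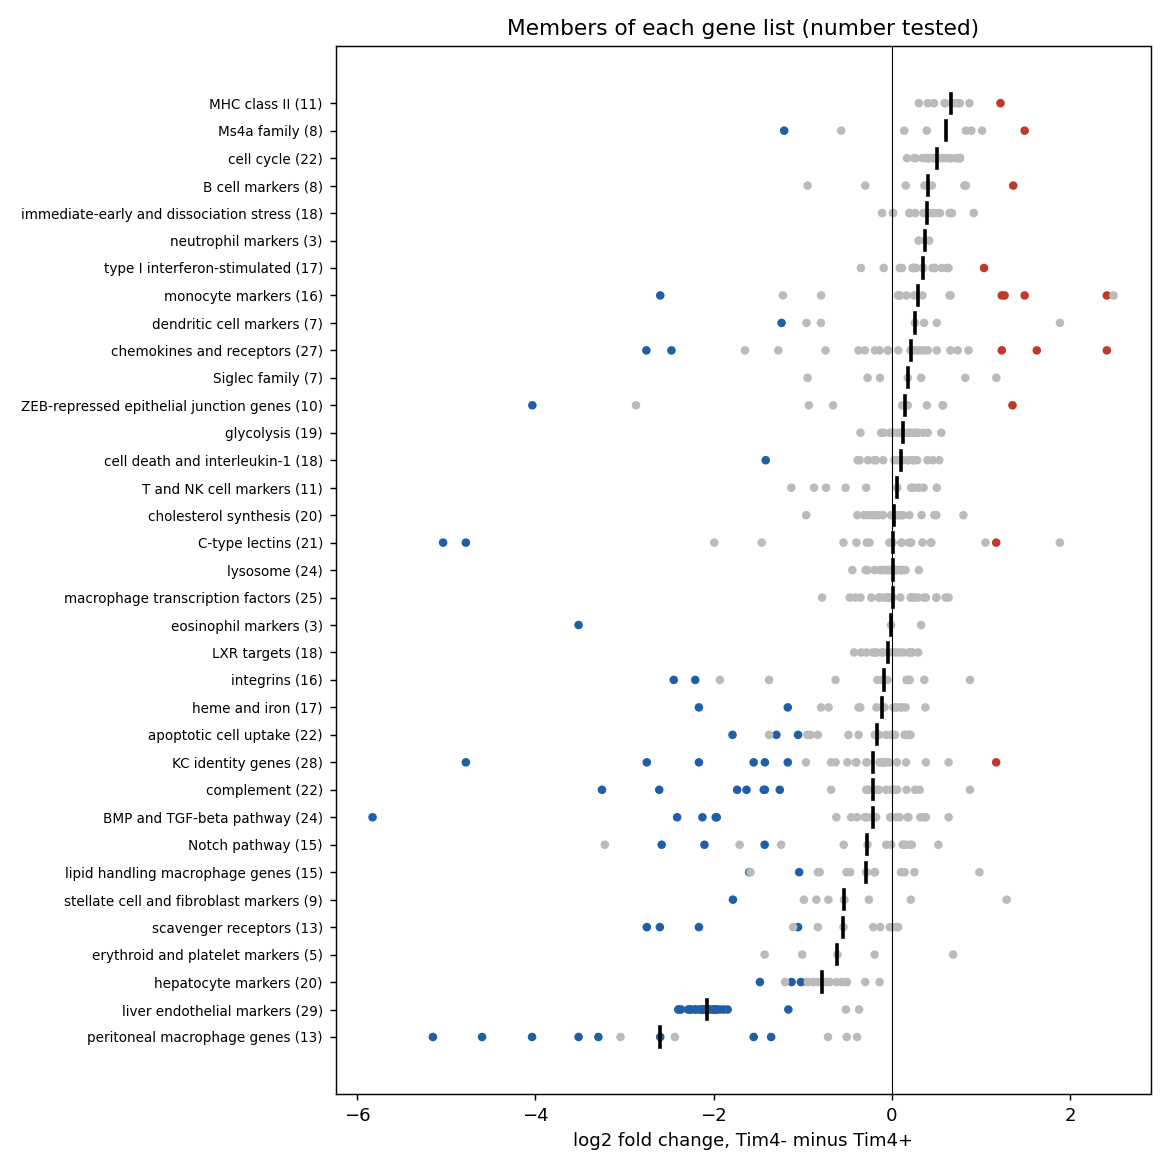
Log2 fold changes (Tim4- minus Tim4+, horizontal axis) of the tested members of 35 gene lists, 1 point a gene, red where called higher, blue where called lower and grey otherwise, with the median of each list as a black bar and the number tested in parentheses. Endothelial and peritoneal macrophage lists lie lowest, at medians of -2.07 and -2.60, and MHC class II lies highest, at 0.67. The peritoneal list was added after the largest decreases had been seen, so its low place follows from that choice.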

How the data were processed

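Bulk RNA was sequenced from KCs sorted into Tim4- and Tim4+ cells. The authors trimmed reads with Trimmomatic 0.35, checked them with FastQC 0.11.4, mapped them to mm10 with TopHat2 2.1.0 and counted them per gene with HTSeq-count, and deposited raw counts for each sample (tool versions per the submitters' processing notes). The strand setting and gene annotation are not given in the sources used here. The 5 tally rows of each file (reads on no feature were 5.62% to 8.90% of all reads in a file) were left out. Samples were grouped by their source name. The 15 alveolar macrophage samples were not used here.

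Counts were fitted with edgeR 4.0.16 in R 4.3.3 (filterByExpr, TMM factors, glmQLFit and glmQLFTest) with sort and replicate number as terms, and p-values were adjusted by Benjamini-Hochberg over 12112 genes. The study's methods name limma (voom), which was run as an alternative with limma 3.58.1, beside DESeq2 1.42.0. The SE is the absolute log2 fold change divided by the square root of F. The 45 pairs of replicates all differed beyond sampling noise. A few genes of these lists are not reported here. Named genes were the sort, target and study genes, the 12 largest increases and decreases among called genes that moved the same way in all 6 pairs with a mean of at least 10 CPM in the higher group, and up to 4 called members of each list, or the 2 most abundant where none was called; other members of the 34 lists are named as examples, chosen after their values were seen. The comparison and the lists were chosen with earlier results of these data known, and the peritoneal macrophage list was added after the values were seen. Positions and promoters are from RefSeq (GRCm38.p6, the assembly of mm10), matched by symbol for 589 of 590 and 73 of 103 genes. A gene's CPM was compared between samples, not with that of other genes.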

Additional observations from a re-analysis of the deposited data

Results flagged for a closer look

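In groups of 6, a sample was singled out where its gap to the nearest other sample, on the log2 CPM scale, as a share of the range of the group, passed Dixon's 95% critical value. This held in 13 of 202 groups tested, and chance singles out about 1 in 20. Among KC genes, Clec4f was low in Tim4- replicate 1, at 2766 CPM against 3617 to 4147 CPM in the other Tim4- samples. The cathepsin gene Ctsb was low in the same library, at 9859 CPM against 10782 to 11171 CPM, and so was Zbtb46, at 1.65 CPM against 6.25 to 9.80 CPM. Mup3 was at 0 there against 2.27 to 26.03 CPM. Tim4- replicate 1 is the shallowest library, with 9837240 reads on genes.

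Tim4+ replicate 4 had 215 CPM of Saa3 against 2.44 to 5.65 CPM in the other Tim4+ samples and 72.3 CPM of Il1a against 98.98 to 113 CPM. Tim4- replicate 4 had 0.835 CPM of Fam84a against 1.62 to 1.97 CPM in the other Tim4- samples and 0 of Nrarp against 0.881 to 4.88 CPM. Tim4- replicate 5 had 431 CPM of Siglecf against 255 to 294 CPM and 0 of Galnt18 against 1.12 to 4.28 CPM. Tim4+ replicate 3 had 279.7 CPM of Timd4 against 379 to 449.9 CPM and 15.4 CPM of Gzma against 1.33 to 2.59 CPM. Tim4+ replicate 1 had 22.5 CPM of Ms4a8a against 41.3 to 55.9 CPM.

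Pcna, the replication clamp, was flagged because the sign of its difference was not the same in pairs with and without Xist. The mean difference in log2 CPM between Tim4- and Tim4+ KCs was 0.32 over the 4 pairs with counts on Xist, each above 0, and -0.096 over the 2 pairs without, each below 0. These differ by 0.42, and the difference was not tested. The Tim4+ over Tim4- ratios were 0.680, 0.656, 0.999 and 0.912 in pairs 1 to 4, with Xist, and 1.131 and 1.01 in pairs 5 and 6. Pairs 3 and 6 thus lay close to no difference.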

How the results depend on the processing

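The counts of 87 higher and 635 lower genes moved by at most 1.5 times with another tool (limma-voom 105 and 707, DESeq2 110 and 822), other factors (RLE 87 and 636, upper quartile 89 and 629), another filter (none 90 and 696, at least 10 counts in every sample 83 and 451) and without the 10 most counted genes (87 and 635). Without the endothelial list they were 87 and 609, but this only drops the rows of the list, 27 of which were called lower. That count cannot show how far endothelial RNA enters the other lower genes. The RLE and upper-quartile factors moved the median log2 fold change of all genes to -0.0037 and 0.014. Without the replicate block 67 genes were higher and 552 lower, 66 and 531 of them called with it, and with all 18 KC samples and no replicate block 55 and 626. With no limit on the fold change the counts were 719 and 1066, and 11 and 247 where edgeR's glmTreat tested against a fold of 2. Leaving out 1 replicate number gave 67 to 101 higher and 520 to 653 lower genes. The 4 pairs with Xist gave 88 and 580 and the 2 pairs without gave 69 and 360. The causes of these shifts were not tested, beyond fewer samples in the last ones.

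The replicate numbers were checked as pairs by the correlation of samples' deviations from their group means, which was 0.0973 (pair 2) to 0.241 for the same number, with 5 of 6 pairs over 0.1, against a mean of -0.037 for different numbers, and 12 of 12 samples correlated best with their own number. As a hint from the data and not the design, this does not settle whether the numbers mark shared mice. Of 101 named genes reported, 61 kept their direction and call under every alternative, and 29 lost the call under at least 1. Direction turned under some alternative in 7 named genes, none of them called. In the pairs without Xist the log2 fold change was 0.17 for Apoe, -0.13 for Gzma, -0.16 for Il2rb, -0.10 for Pcna and 0.11 for Zeb2, and in those with Xist 0.043 for Nr1h3 and -0.016 for Srebf2. Leaving out 1 replicate number gave -0.22 to 0.025 for Apoe, -0.11 to 0.014 for Nr1h3 and -0.081 to 0.030 for Zeb2. At the depth of the shallowest library, 3 counts correspond to 0.305 CPM, which limits genes at a few CPM such as Ocln and Bmpr1a.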

Other observations

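Further genes were picked after their values had been seen and are given as a description. Vcam1, an adhesion receptor of resident macs and endothelium, had 116 to 372 CPM (median 263) in Tim4- KCs, 478 to 943 CPM (median 682) in Tim4+ KCs and 439 to 1071 CPM (median 521) in CRE- KCs (log2 fold change -1.54, adjusted p = 1.53e-05). Apoc1, an apolipoprotein, had 63.99 to 168 CPM (median 117) against 312 to 571 CPM (median 465) (log2 fold change -2.02, adjusted p = 6.26e-06). Cd34, a sialomucin of progenitors and endothelium, had 56.5 to 268 CPM (median 189) against 36.2 to 110.2 CPM (median 62.6) and 1.13 to 4.95 CPM in CRE- KCs (log2 fold change 1.32, adjusted p = 2.11e-05). Ly6a, which encodes Sca-1, had 621 to 1774 CPM (median 1459.7) against 446 to 1109 CPM (median 842) (log2 fold change 0.74, adjusted p = 4.98e-05). Coro1a, an actin regulator of leukocytes, had 793 to 1243 CPM (median 980.1) against 362 to 671 CPM (median 517) (log2 fold change 0.95, adjusted p = 2.44e-05), and S100a11 38.4 to 83.5 CPM (median 49.8) against 13.2 to 34.2 CPM (median 18.9) (log2 fold change 1.41, adjusted p = 9.05e-06). Il1r2, the interleukin 1 decoy receptor, had 22.4 to 79.7 CPM (median 36.5), 11.3 to 27.99 CPM (median 14.7) and 0 to 0.540 CPM (median 0) in Tim4-, Tim4+ and CRE- KCs (log2 fold change 1.25, adjusted p = 1.84e-04). Spint1, an inhibitor of the protease encoded by St14, had 8.67 to 63.99 CPM (median 46.2) against 8.32 to 30.2 CPM (median 20.1) (log2 fold change 1.18, adjusted p = 0.00140).

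Bhlhe41, a transcription factor of alveolar macs, had 1029 CPM in Tim4- replicate 1 against 20.7 to 65.02 CPM in the other Tim4- samples and 20.3 to 90.8 CPM in Tim4+ KCs (log2 fold change 0.50, adjusted p = 0.595). Tim4- replicate 1 was also singled out for low Clec4f above.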
